A study of Mus musculus with 68 samples.

Results

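The potassium channel genes were taken as every gene of the array table with an annotated symbol that starts with Kcn, read from a transcript cluster, the probe set that stands for a transcript, with exactly 1 symbol. They numbered 92 of the 19938 genes measured. Of the 92, 89 code for proteins and 3 are noncoding RNAs named after a channel gene (Kcnd3os, Kcnmb4os1 and Kcnmb4os2). For the 3 members with several clusters (Kcna2, Kcnh8 and Kcnma1) the brightest on average over the 68 arrays was used. The families were 8 Kcna (Kv1), 1 Kcnb (Kv2), 3 Kcnc (Kv3), 3 Kcnd (Kv4) and 3 Kcnq (Kv7) genes, 7 Kcnh genes of the eag, erg and elk type and 10 silent subunits (Kcnf, Kcng, Kcns and Kcnv). There were also 15 inward rectifiers (Kcnj), 14 tandem-pore leak channels (Kcnk), 8 genes of large- and small-conductance calcium-activated channels and their sodium- or pH-gated relatives (Kcnm, Kcnn, Kcnt and Kcnu), 4 beta subunits of the large-conductance channel (Kcnmb), 4 Kv4 partners called KChIP (Kcnip), 3 Kv beta subunits (Kcnab), 5 KCNE subunits and Kcnrg, a regulator of Kv assembly.

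Potassium channels let potassium leave the cell, which sets the resting potential, ends the action potential and limits repetitive firing. Kv channels open when the membrane depolarises, inward rectifiers and leak channels carry current near rest, and calcium-activated channels shape the afterhyperpolarisation that paces the firing of motor neurons. KChIP proteins bind Kv4 channels and change their number at the surface and their speed of inactivation, and silent subunits form working channels only together with other Kv subunits.

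The arrays came from a gain-of-function screen for genes that give mouse motor neurons the character of phrenic motor neurons, the neurons that drive the diaphragm. Embryoid bodies of C57/BL6 embryonic stem cells were patterned from day 2 with retinoic acid and an agonist of Smoothened, dissociated on day 5 and were sorted with magnetic beads for CD2 or CD14, surface reporters driven in motor neurons. Sorted cells were then cultured for 30 h on matrigel with doxycycline, which turned on 1 or 2 transgenes, or only for the last 10 h in some lines with a Notch intracellular domain. All 68 arrays carry the label "ES cells", and whether the arrays of a group stand for separate cultures is not said. P-values therefore weigh differences against the spread of these arrays alone, part of which may be technical.

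Among the 45 arrays of CD2 cells, 4 were of YFP, 4 of Pou3f1 and 3 of the H4 parental line, and 2 each were of Arid5b, Btbd3, Chd5, DNLhx3, Hey1, Hoxa5, Hoxc6, Klf5, Klf6, Lhx3, Notch1 ICD (10), Notch1 ICD (30), Sfmbt2, Tox, Vwc2, Zbtb7c and Zic1. Among the 23 arrays of CD14 cells, 4 were of YFP and 2 each were of Pou3f1, Pou3f1-FLAG, NERT (10), NERT (30) and of Pou3f1 together with DNLhx3, Hoxa5, Hoxc6 or Lhx3, written here Pou3f1+DNLhx3 and so on. The E3 parental line had 1 array in batch 6 and 2 in batch 0, which are given as values only. DNLhx3 ("Lhx3 (DN)" in the labels), NERT, H4, E3 and the marks (10) and (30) are used as the labels give them, which do not say what NERT is, and YFP, a fluorescent protein, is the control that the series names. The mean of 13 motor neuron markers lay between 10.66 and 11.87 on all arrays, and that of 12 pluripotency markers between 6.38 and 7.53, where the array median over all clusters was 7.57 to 7.84 in batches 1 to 7. Isl1, a homeodomain factor of motor neurons, read 12.46 to 12.97 on the 8 YFP arrays. In batch 4, 6 of the 9 arrays stood apart (1 each of Hoxa5, Chd5, H4 and Arid5b and 2 of Pou3f1). They read Hoxa5 at 12.14 to 12.75 and Hoxc5 at 12.14 to 12.50, against 9.06 to 9.97 and 8.41 to 10.36 on CD2 YFP. Pou3f1 read 10.14 and 10.7 on the 2 of these arrays labelled Pou3f1 and 8.83 to 9.23 on the rest, against 8.39 to 8.69 on CD2 YFP. Whether all 6 match their labels could not be settled. All values are log2 expression values, differences are log2 differences in a limma model with a term per group and per batch, ± gives the standard error of that fit, and a member is said to have risen or fallen where the Benjamini-Hochberg adjusted p over all 19938 genes was under 0.05.

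Over the 27 comparisons of a line with YFP of the same reporter, 41 of the 92 members were called at least once, 18 of them in a single comparison, and 51 in none. Of the 2484 pairs of member and comparison, 93 were called (3.74%), 47 higher and 46 lower, against 1.99% of the 538326 pairs of all genes. By family, 9.88% of pairs were called among Kv4 channels, 9.26% among their KChIP partners, 7.41% among Kcnh, 4.94% among Kv7, 4.63% among Kv1 and 3.97% among Kcnk genes. These shares rest on few genes, Kcnd3 giving 6 of the 8 Kv4 calls and Kcnk9 9 of the 15 Kcnk calls, and no difference between families was tested. The KCNE and Kv beta subunits had no call against YFP (limma). Kcna5, Kcnc2, Kcnj2 and Kcnj6, which hold 11 of the 93 calls, were dim, each with a mean over all arrays among the lowest 25% of genes (under 6.70). Whether they were above background on an array was not tested, so their differences are those of the summarised signal. Most calls were in Notch1 ICD (30), NERT (30), the lines with an Lhx3 construct and those with a Hox gene beside Pou3f1, as the map of fitted differences shows. Comparisons of the same reporter share their YFP arrays, so their calls are given side by side and not counted as repeats. Of the 93 calls, 23 remained without any 1 array of the 2 groups compared, and 17 of them, on 12 members, also passed under each alternative setting that gave them a value.

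**Figure D1:**
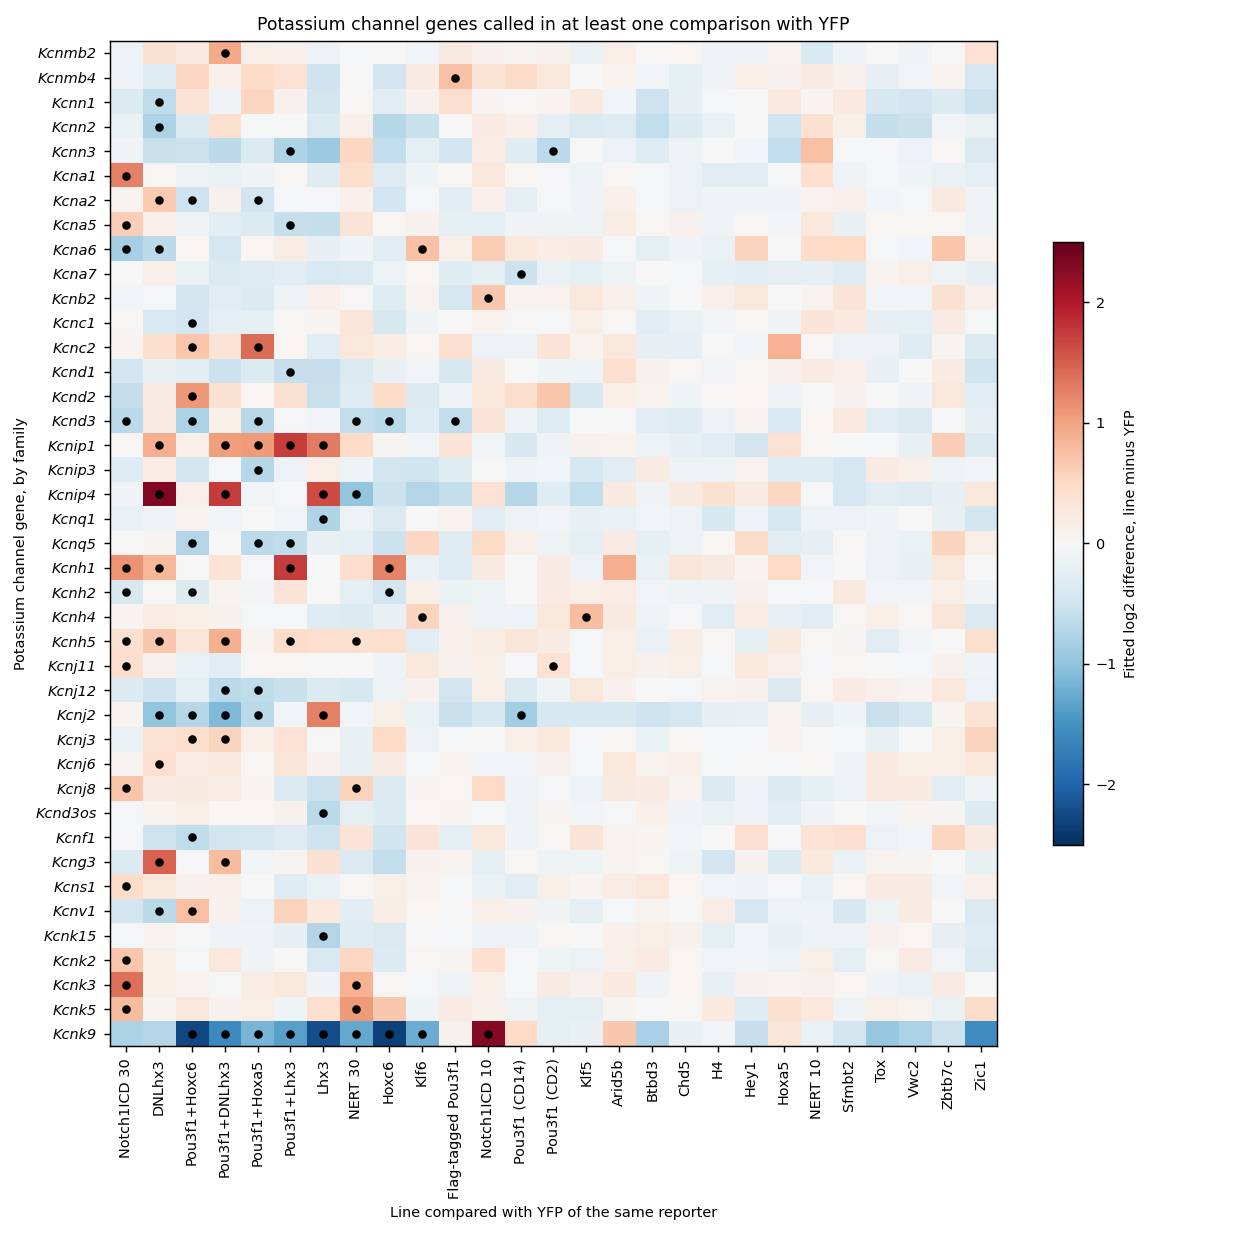
Fitted log2 difference from YFP (colour, red higher and blue lower) of the 41 potassium channel genes called at least once (rows, by family) in the 27 lines compared with YFP of the same reporter (columns, by number of calls). Black dots mark the 93 calls at an adjusted p under 0.05. Notch1 ICD (30) has 13, DNLhx3 and Pou3f1+Hoxc6 have 12 each, and Kcnk9 is the row with most dots.

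In Notch1 ICD (30), CD2 cells, 13 of the 92 members were called (14.1%, against 6.07% of all genes), 10 higher and 3 lower (3.54% and 2.53% of all genes). This was the highest count in the fit of all arrays, but not with arrays of the same reporter only, where it was 12 against 29 in Pou3f1+Hoxc6 and 26 in NERT (30). The share of all genes called in that setting was not counted, so these counts have no background beside them. In NERT (30), CD14 cells that share no array with them, 7 were called (7.61%, against 4.7% of all genes), 4 higher and 3 lower (2.91% and 1.79% of all genes). Of the 14 leak channel genes, 3 rose in Notch1 ICD (30) (median difference over the family -0.05), and 2 rose and 1 fell in NERT (30) (median -0.18). Members called in the same direction in both were Kcnk3, Kcnk5, Kcnj8, Kcnh5 and Kcnd3, which is 38.5% of the calls of Notch1 ICD (30) and 71.4% of those of NERT (30). Over all genes the shares were 41.6% and 53.6%.

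Kcnk3 encodes a leak channel that closes when the outside of the cell turns acid. It read 10.75 and 11.26 on the Notch1 ICD (30) arrays, 9.95 and 9.48 on the YFP arrays of the same batch and 9.54 and 9.27 on the YFP arrays of batches 1 and 2. On the NERT (30) arrays it read 10.17 and 10.26, against 9.39 and 9.33 on the YFP arrays of that batch and 9.58 and 9.62 on those of batch 6. Every array of the 2 lines thus lay above every YFP array of its reporter. The rise was 1.37 ± 0.14 in Notch1 ICD (30) (adjusted p = 2.95e-09) and 0.86 ± 0.15 in NERT (30) (adjusted p = 0.000195). Kcnk3 differed by 0.14 ± 0.16 in Notch1 ICD (10) (adjusted p = 0.707) and by 0.11 ± 0.15 in NERT (10) (adjusted p = 0.88). NERT (30) exceeded NERT (10) by 0.75 ± 0.15 in the direct test (adjusted p = 0.0015).

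Kcnk5, a leak channel that opens in alkaline surroundings, read 8.03 and 8.13 on the Notch1 ICD (30) arrays against 7.11 to 7.46 on the 4 YFP arrays. It read 8.69 and 8.72 on the NERT (30) arrays against 7.65 and 7.63 on the YFP arrays of batch 7 and 6.88 and 7.08 on those of batch 6. The groups did not overlap in either reporter. The rise was 0.79 ± 0.21 in Notch1 ICD (30) (adjusted p = 0.0123) and 1.07 ± 0.22 in NERT (30) (adjusted p = 0.00142). In Notch1 ICD (30) Kcnk5 lost its call without either Notch1 ICD (30) array or without YFP replicate 1 of batch 3 (adjusted p = 0.0504 to 0.128), and NERT (30) exceeded NERT (10) by 0.81 ± 0.22 (adjusted p = 0.0271), a call that was lost without any 1 of these 4 arrays (adjusted p = 0.131 to 0.21).

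Kcna1, the Kv1 channel of axons, read 9.40 and 8.76 on the Notch1 ICD (30) arrays and 7.70 to 7.94 on the YFP arrays. It rose by 1.27 ± 0.15 (adjusted p = 4.49e-08). In NERT (30) the difference was 0.45 ± 0.16 and did not pass the test (adjusted p = 0.11). Kcnh1, the eag channel, read 9.23 and 9.17 against 7.57 to 8.25 and rose by 1.13 ± 0.19 in Notch1 ICD (30) (adjusted p = 3.68e-05), and differed by 0.43 ± 0.20 in NERT (30) (adjusted p = 0.245). Whether Kcna1 and Kcnh1 differ between the 2 lines was not tested.

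Kcnj8 and Kcnj11 encode pores of the ATP-sensitive channel, which ties potassium current to the energy state of the cell. Kcnj8 rose by 0.68 ± 0.14 in Notch1 ICD (30) (adjusted p = 0.00135) and by 0.56 ± 0.15 in NERT (30) (adjusted p = 0.0275). Kcnj11 rose by 0.44 ± 0.10 in Notch1 ICD (30) (adjusted p = 0.00355) and differed by 0.01 ± 0.11 in NERT (30). Abcc8, which encodes the sulfonylurea receptor subunit of the same channel, rose by 0.80 ± 0.14 and 0.65 ± 0.15 (adjusted p = 9.67e-05 and 0.00594). Kcnj8 exceeded the NERT (10) level by 0.77 ± 0.15 in NERT (30) (adjusted p = 0.00122), and that call was lost without NERT (30) replicate 2 (adjusted p = 0.23). Against YFP, Kcnj8 lost its call in Notch1 ICD (30) without replicate 2 (adjusted p = 0.0546) and in NERT (30) without replicate 2 or either YFP array of batch 7 (adjusted p = 0.0739 to 0.615), and Kcnj11 without Notch1 ICD (30) replicate 2 (adjusted p = 0.0823).

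Of the remaining calls higher in Notch1 ICD (30), Kcnk2, a stretch-sensitive leak channel, rose by 0.70 ± 0.16, Kcna5 by 0.62 ± 0.15, the silent subunit Kcns1 by 0.45 ± 0.14 and Kcnh5, the second eag channel gene, by 0.39 ± 0.11 (adjusted p = 0.00361, 0.00628, 0.0478 and 0.016). In NERT (30), Kcnh5 rose by 0.41 ± 0.11 (adjusted p = 0.0262). Kcnk2 and Kcna5 lost the call without Notch1 ICD (30) replicate 2 (adjusted p = 0.15 and 0.132) and Kcnh5 without either replicate (adjusted p = 0.0882 and 0.131). Kcns1 lost it without replicate 1 of the line or any 1 of the 4 YFP arrays (adjusted p = 0.0577 to 0.539), and Kcnh5 in NERT (30) without replicate 2 of the line or either YFP array of batch 7 (adjusted p = 0.123 to 0.47).

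Kcnd3, a Kv4 channel of fast A-type current, fell in both lines. It read 10.14 and 10.10 on the Notch1 ICD (30) arrays against 10.44 to 10.76 on the YFP arrays, and 9.91 and 9.99 on the NERT (30) arrays against 10.49 to 10.67. The groups did not overlap in either reporter. The falls were -0.66 ± 0.12 (adjusted p = 0.000154) and -0.61 ± 0.13 (adjusted p = 0.00176), and NERT (30) differed from NERT (10) by -0.65 ± 0.13 (adjusted p = 0.00101). The call in NERT (30) was lost without YFP replicate 1 of batch 7 (adjusted p = 0.0621), that against NERT (10) without NERT (10) replicate 2 (adjusted p = 0.0696), and that in Notch1 ICD (30) without batch terms (-0.51, adjusted p = 0.0965) or with same-batch arrays only (-0.59, adjusted p = 0.111).

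Kcna6, a Kv1 channel, fell by 0.84 ± 0.18 in Notch1 ICD (30) and Kcnh2, the erg channel, by 0.39 ± 0.09 (adjusted p = 0.00189 and 0.00307). Kcna6 lost its call without Notch1 ICD (30) replicate 1 (adjusted p = 0.146) and Kcnh2 without replicate 2 (adjusted p = 0.0759). In NERT (30), Kcnk9 fell by 1.28 ± 0.34 and Kcnip4 by 1.00 ± 0.27 (adjusted p = 0.0205 and 0.0211), and both lost the call without any 1 of the 4 batch 7 arrays of NERT (30) and YFP (adjusted p = 0.0542 to 0.257 for Kcnk9 and 0.103 to 0.166 for Kcnip4). Without batch terms Kcnip4 differed by -0.09 in NERT (30) (adjusted p = 0.889), and CD14 YFP read it at 7.70 and 7.93 in batch 6 and at 9.56 and 9.67 in batch 7. With same-batch arrays only, 3 members were called in Notch1 ICD (30) and 20 in NERT (30), where the share of all genes called was not counted.

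**Figure D2:**
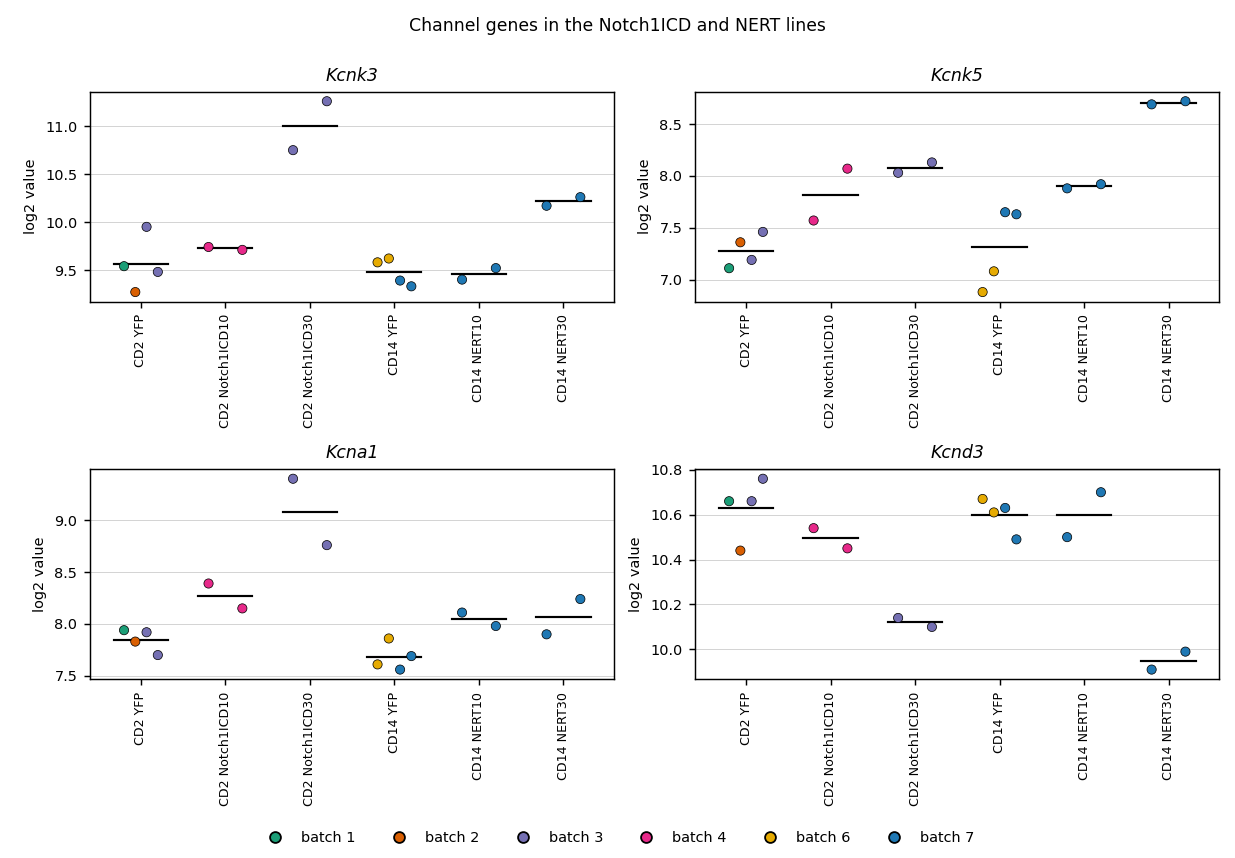
log2 values of Kcnk3, Kcnk5, Kcna1 and Kcnd3 on each array of the YFP, Notch1 ICD (CD2) and NERT (CD14) groups, with 10 and 30 as in the labels. Points are arrays coloured by batch and bars are group means. Kcnk3 reads 10.75 and 11.26 in Notch1 ICD (30) and 10.17 and 10.26 in NERT (30), above all YFP arrays of the same reporter.

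Means of several marker lists lay outside the YFP range in these lines. The motor neuron list was lower, with 0 of 13 markers higher and 7 lower in Notch1 ICD (30) (median difference -0.64) and 0 higher and 9 lower in NERT (30) (median -0.63). Its mean read 10.66 to 10.82 in Notch1 ICD (30) against 11.14 to 11.35 in CD2 YFP, and 10.71 to 10.82 in NERT (30) against 11.32 to 11.41 in CD14 YFP. Of 16 progenitor and radial glia markers, 2 were higher and 1 lower in Notch1 ICD (30) (median 0.38), and 3 were higher in NERT (30) (median 0.33). Their mean read 10.67 to 10.68 in Notch1 ICD (30) against 10.00 to 10.56 in CD2 YFP, and 10.60 to 10.65 in NERT (30) against 9.90 to 10.28 in CD14 YFP. Median differences over the 16 cycling markers were 0.53 and 0.37, with none called by limma in either (5 and 1 at an unadjusted p under 0.05). The cycling lists had group means of 11.03 and 11.1, with both arrays of each line above 10.74 and 10.72, the highest on YFP of each reporter. The oligodendrocyte and astrocyte list had 3 of 8 markers higher in Notch1 ICD (30) and 1 in NERT (30). Of 14 ventral interneuron markers, 3 were higher and none lower in each line, and their mean read 7.81 to 7.87 against 7.41 to 7.52 on CD2 YFP and 7.68 to 7.70 against 7.28 to 7.39 on CD14 YFP. Of 15 synaptic and mature neuron markers, 3 were lower in Notch1 ICD (30) and 1 in NERT (30), and their mean read 11.26 to 11.34 against 11.43 to 11.62 and 11.12 to 11.14 against 11.33 to 11.66. The part of these shifts in the channel results was not tested, and in such bulk samples fewer cells of a type and less RNA per cell cannot be told apart.

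Notch signalling ends in RBPJ, a factor that binds DNA at sites with the letters GTGGGAA. Windows of 250 bases before to 50 bases after the start site were available from RefSeq (GRCm38.p6) for 70 of the 92 members, 95 windows in all. The letters GTGGGAA or their reverse complement TTCCCAC stood in 5 of these windows (5.26%), against 6.38% of 32851 windows of all genes. Among members called in Notch1 ICD (30) they stood in those of Kcna5, which rose, and Kcnh2, which fell. The 250 bases before the start are shown for these and for Kcnk5, which rose in Notch1 ICD (30) and NERT (30) and whose window held no such letters. All are on the minus strand, printed 5′ to 3′ in the direction of transcription, with matches in capitals. A match is a description of letters, not a site.
Kcna5 (chr6:126535556-126535805): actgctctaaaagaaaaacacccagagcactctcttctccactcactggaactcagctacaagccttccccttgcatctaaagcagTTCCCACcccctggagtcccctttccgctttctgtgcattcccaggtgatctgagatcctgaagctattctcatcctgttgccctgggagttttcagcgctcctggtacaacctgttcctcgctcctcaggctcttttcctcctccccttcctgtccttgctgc
Kcnh2 (chr5:24329592-24329841): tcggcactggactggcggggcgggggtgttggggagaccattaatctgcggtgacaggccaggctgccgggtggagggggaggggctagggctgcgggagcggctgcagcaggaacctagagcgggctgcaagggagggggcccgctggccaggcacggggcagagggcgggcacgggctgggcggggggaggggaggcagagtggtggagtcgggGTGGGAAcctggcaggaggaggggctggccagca
Kcnk5 (chr14:20181783-20182032): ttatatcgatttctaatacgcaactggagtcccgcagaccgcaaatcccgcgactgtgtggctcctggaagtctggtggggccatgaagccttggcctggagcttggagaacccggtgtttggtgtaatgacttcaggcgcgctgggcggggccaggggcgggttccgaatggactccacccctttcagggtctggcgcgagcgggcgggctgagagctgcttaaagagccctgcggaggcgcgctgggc
The match in Kcna5 starts at -164 and that in Kcnh2 at -34 from the start site, and Kcnh2 held a second one, reverse complemented, at 13 after it. The octamer ATGCAAAT, the letters bound by POU factors such as Pou3f1, stood in either orientation in 1 member window (1.05%), that of Kcnab2, against 1.74% of all windows. Kcnab2 was called in no comparison with YFP.

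Of the 4 KChIP genes, Kcnip1 and Kcnip4 rose in DNLhx3, Pou3f1+DNLhx3 and Lhx3, Kcnip1 alone rose in Pou3f1+Lhx3, and Kcnip2 and Kcnip3 were called in none of these lines. Lhx3 encodes a LIM homeodomain protein that newborn motor neurons use. In DNLhx3 (CD2 cells) 12 of 92 members were called (13.0%, against 4.09% of all genes), 7 higher and 5 lower (2% and 2.09% of all genes). With same-batch arrays only, Kcng3, Kcnh5, Kcnip1 and Kcnip4 kept these calls and the others were lost (adjusted p = 0.0663 to 0.313). With arrays of the same reporter only, the calls of Kcnip1, Kcna6, Kcnj6, Kcnn1 and Kcnv1 were lost (adjusted p = 0.127 to 0.145). In Pou3f1+DNLhx3 (CD14 cells) 9 were called (9.78%, against 4% of all genes), 6 higher and 3 lower (2.12% and 1.89% of all genes). These groups share no array, and Kcnip4, Kcnip1, Kcng3 and Kcnh5 rose and Kcnj2 fell in both. These 5 members were 41.7% of the calls in DNLhx3 and 55.6% of those in Pou3f1+DNLhx3, where over all genes the shares were 42.6% and 43.5%.

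Kcnip4 encodes a KChIP that slows the inactivation of Kv4 channels. It read 10.52 and 10.41 on the DNLhx3 arrays and 7.77 to 8.70 on the CD2 YFP arrays, with no overlap. On the Pou3f1+DNLhx3 arrays it read 9.57 and 9.54, against 7.70 and 7.93 on the YFP arrays of the same batch. The CD14 YFP arrays of batch 7 read 9.56 and 9.67, as high as the line, so the groups overlapped across batches. Kcnip4 rose by 2.32 ± 0.25 in DNLhx3 (adjusted p = 2.28e-08) and by 1.74 ± 0.27 in Pou3f1+DNLhx3 (adjusted p = 1.55e-05). The second of these was 0.84 without batch terms (adjusted p = 0.297). Against Pou3f1 alone in the same batch, which read 6.98 and 7.22, Pou3f1+DNLhx3 was higher by 2.46 ± 0.27 (adjusted p = 3.17e-08).

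Kcnip1, another KChIP, read 10.81 and 10.64 on the DNLhx3 arrays against 9.29 to 9.93 on CD2 YFP, and 10.72 and 10.58 on the Pou3f1+DNLhx3 arrays against 9.57 to 9.80 on CD14 YFP. The line lay above all YFP arrays in both reporters. It rose by 0.90 ± 0.25 (adjusted p = 0.0308) and 1.04 ± 0.27 (adjusted p = 0.0154). The first call was lost without either DNLhx3 array, YFP replicate 2 of batch 2 or YFP replicate 2 of batch 3 (adjusted p = 0.0624 to 0.163), and the second without any 1 of the 4 batch 6 arrays of Pou3f1+DNLhx3 and YFP (adjusted p = 0.0729 to 0.162). Against Pou3f1 alone Kcnip1 was higher by 1.43 ± 0.27 in Pou3f1+DNLhx3 (adjusted p = 0.000747).

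Kcng3, a silent subunit, read 8.62 and 8.63 on the DNLhx3 arrays against 7.04 to 7.43 on CD2 YFP, and 7.72 and 7.74 on the Pou3f1+DNLhx3 arrays against 6.78 to 7.12 on CD14 YFP. The groups did not overlap. The rises were 1.47 ± 0.18 (adjusted p = 2.31e-07) and 0.78 ± 0.19 (adjusted p = 0.0074). Without YFP replicate 1 of batch 6 or either Pou3f1+DNLhx3 array, the second call was lost (adjusted p = 0.0655 to 0.237). Kcnh5 read 7.42 and 7.32 on the DNLhx3 arrays against 6.65 to 6.78 and rose by 0.67 ± 0.11 (adjusted p = 4.26e-05). On the Pou3f1+DNLhx3 arrays it read 7.49 and 7.45 against 6.53 to 6.59 and rose by 0.90 ± 0.11 (adjusted p = 3.94e-07). These Kcnh5 calls held without any 1 array of the groups compared.

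Kcnj2, the classical inward rectifier, read 5.75 and 5.75 on the DNLhx3 arrays against 6.36 to 7.05 on CD2 YFP. It read 5.65 and 5.42 on the Pou3f1+DNLhx3 arrays against 6.44 and 6.82 on YFP of that batch and 7.73 and 7.83 on YFP of batch 7. The lines were below all YFP arrays of their reporter. The falls were -0.99 ± 0.19 (adjusted p = 0.000879) and -1.09 ± 0.21 (adjusted p = 0.000383). Kcnj2 is among the dim members, and without batch terms its difference in Pou3f1+DNLhx3 was -1.67 (adjusted p = 1.2e-05). In DNLhx3 the call was lost without batch terms (-0.84, adjusted p = 0.074) and with same-batch arrays only (-1.03, adjusted p = 0.0663). Pou3f1 alone in CD14 cells read 5.95 and 5.56, so that both lines with Pou3f1 were low for Kcnj2.

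In DNLhx3, further rises were those of Kcnh1 by 0.83 ± 0.19, Kcna2, a Kv1 channel of axons, by 0.65 ± 0.12, and Kcnj6, an inward rectifier opened by G proteins, by 0.43 ± 0.12 (adjusted p = 0.00521, 0.000606 and 0.0411). Falls were those of the small-conductance channels Kcnn2 (-0.79 ± 0.17) and Kcnn1 (-0.63 ± 0.18), of the silent subunit Kcnv1 (-0.66 ± 0.19) and of Kcna6 (-0.65 ± 0.18), with adjusted p of 0.00421, 0.0318, 0.0376 and 0.0325. Kcnh1 and Kcna2 lost their call without DNLhx3 replicate 1 (adjusted p = 0.126 and 0.073) and Kcnn2 without replicate 2 (adjusted p = 0.257). Kcnj6 and Kcnn1 lost it without either replicate, YFP replicate 2 of batch 2 or YFP replicate 2 of batch 3 (adjusted p = 0.0562 to 0.399). Kcnv1 lost it without either replicate or YFP replicate 2 of batch 3 (adjusted p = 0.134 to 0.246), and Kcna6 without replicate 2 or without YFP replicate 2 of batch 2 or of batch 3 (adjusted p = 0.0503 to 0.628).

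In Pou3f1+DNLhx3, Kcnmb2, a beta subunit that inactivates the large-conductance channel, read 7.91 and 7.71 against 6.82 to 7.29 on CD14 YFP. It rose by 0.95 ± 0.15 (adjusted p = 2.51e-05) and exceeded Pou3f1 alone, at 6.86 and 6.99, by 0.88 ± 0.15 (adjusted p = 0.000162). Kcnj3, a G protein-gated inward rectifier, rose by 0.55 ± 0.14 (adjusted p = 0.0166) and Kcnj12, an inward rectifier close to Kcnj2, fell by 0.68 ± 0.17 (adjusted p = 0.0131). Kcnk9 fell by 1.60 ± 0.34 and is described below with the other lines. Kcnj3 lost its call without YFP replicate 1 of batch 6 or either Pou3f1+DNLhx3 array (adjusted p = 0.0572 to 0.258), and Kcnj12 without Pou3f1+DNLhx3 replicate 1 or either YFP array of batch 6 (adjusted p = 0.0933 to 0.406). Against Pou3f1 alone 6 members were called (6.52%, against 2.11% of all genes). These were Kcnip4, Kcnip1, Kcnmb2, Kcng3 (0.74 ± 0.19) and Kcnh5 (0.59 ± 0.11), which were higher, and Kcnk9 (-2.10 ± 0.34), which was lower. Of these, Kcng3 lost its call without Pou3f1 replicate 1 or either Pou3f1+DNLhx3 array (adjusted p = 0.15 to 0.643), Kcnh5 without Pou3f1 replicate 1 (adjusted p = 0.0816), and Kcnk9 without batch terms (adjusted p = 0.184).

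The motor neuron list was also lower with DNLhx3. In DNLhx3, 1 of 13 markers was higher and 6 lower (median difference -0.5), and in Pou3f1+DNLhx3 none was higher and 9 were lower (median -0.7). Its mean read 10.86 to 10.98 and 10.68 to 10.73 in the 2 lines. Cycling markers had median differences of -0.04 and 0.09, with none called by limma and 0 at an unadjusted p under 0.05 in either. Ventral interneuron means read 7.58 to 7.73 in DNLhx3 against 7.41 to 7.52 on CD2 YFP and 7.64 on both Pou3f1+DNLhx3 arrays against 7.28 to 7.39 on CD14 YFP, with 1 of 14 markers higher in each and 1 lower in DNLhx3. In Pou3f1+DNLhx3 the mean of 10 dorsal interneuron and sensory markers was also above YFP (8.21 to 8.24 against 7.98 to 8.11) and that of 11 mesoderm, endothelium and fibroblast markers below it (7.20 to 7.27 against 7.41 to 7.93). Pou3f1 alone in the same batch read the mesoderm list at 7.24 to 7.28, so this lower mean was not particular to the line with DNLhx3. It read the dorsal list at 8.08 to 8.09. The part of these shifts in the channel results was not tested.

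**Figure D3:**
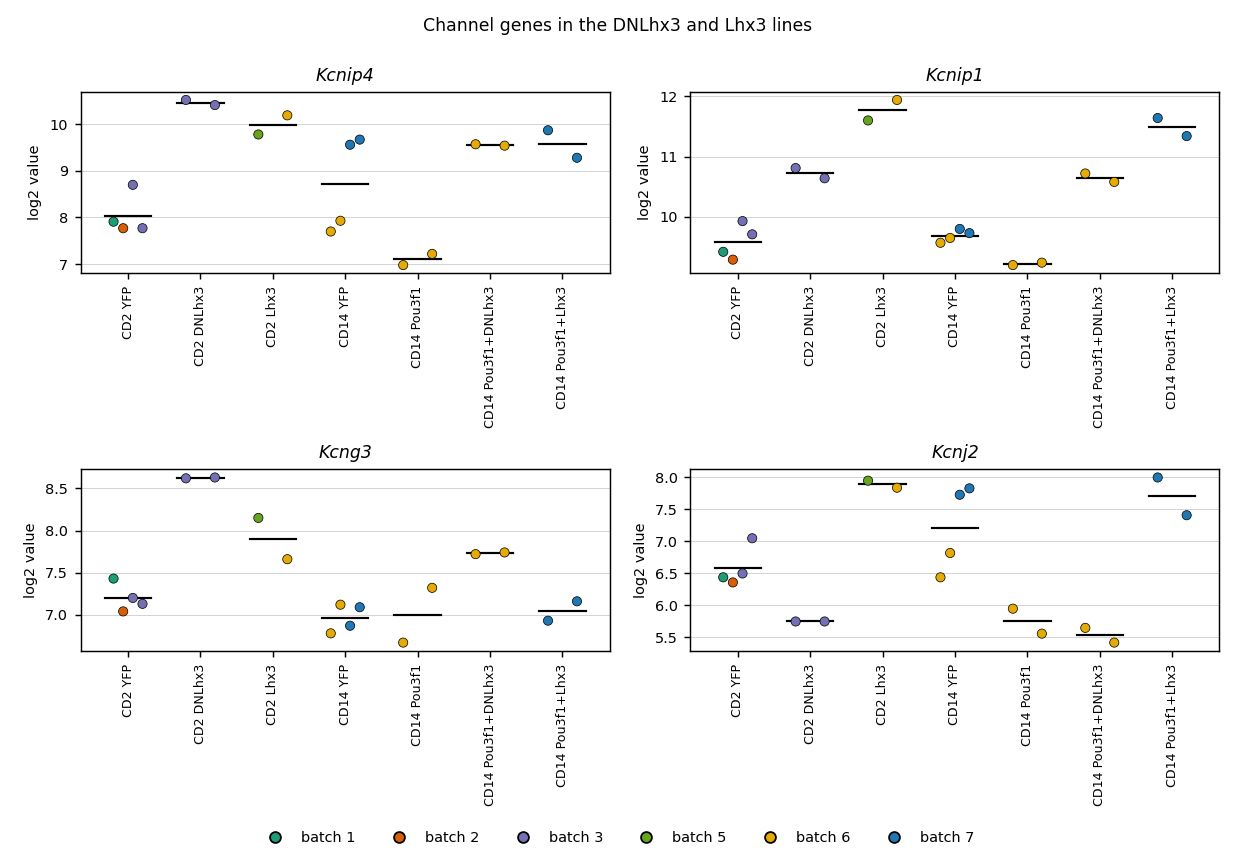
log2 values of Kcnip4, Kcnip1, Kcng3 and Kcnj2 on each array of the YFP, DNLhx3 and Lhx3 groups of CD2 cells and of the YFP, Pou3f1, Pou3f1+DNLhx3 and Pou3f1+Lhx3 groups of CD14 cells. Points are arrays coloured by batch and bars are group means. The CD14 YFP arrays of batch 7 read Kcnip4 at 9.56 and 9.67 and those of batch 6 at 7.70 and 7.93.

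Unmodified Lhx3 was induced alone in CD2 cells, with 1 array in batch 5 and 1 in batch 6, and with Pou3f1 in CD14 cells in batch 7. With Lhx3 alone 7 members were called (7.61%, against 3.81% of all genes), 3 higher and 4 lower (1.67% and 2.14% of all genes). With Pou3f1+Lhx3, 8 were called (8.7%, against 3.94% of all genes), 3 higher and 5 lower (2.21% and 1.73% of all genes). Kcnip1 rose and Kcnk9 fell in both, 28.6% and 25% of the calls, where over all genes the shares were 18.3% and 17.7%.

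Kcnip1 read 11.60 and 11.94 with Lhx3 and 11.64 and 11.34 with Pou3f1+Lhx3. All 4 arrays lay above every YFP array, of which the highest read 9.93. The rise was 1.30 ± 0.39 with Lhx3 (adjusted p = 0.04997, just under the threshold) and 1.73 ± 0.27 with Pou3f1+Lhx3 (adjusted p = 2.79e-05). The first was 2.18 without batch terms (adjusted p = 5.61e-07) and was lost without either Lhx3 array, YFP replicate 2 of batch 2 or either YFP array of batch 3 (adjusted p = 0.0542 to 0.586). The second held without any 1 array but not with the replicate block (1.59, adjusted p = 0.366). Kcnip1 was thus higher than YFP with Lhx3 as it was with DNLhx3.

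Kcnh1 read 9.23 and 9.16 with Pou3f1+Lhx3, against 7.44 and 7.45 on YFP of batch 7 and 8.14 and 8.12 on YFP of batch 6. It rose by 1.75 ± 0.20 (adjusted p = 9.87e-08). With Lhx3 alone it read 8.06 and 7.91, within the range of CD2 YFP (adjusted p = 0.995). Kcnh5 rose by 0.46 ± 0.11 with Pou3f1+Lhx3 (adjusted p = 0.0108), a call that was lost without Pou3f1+Lhx3 replicate 3 or either YFP array of batch 7 (adjusted p = 0.0606 to 0.189).

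Kcnj2 read 7.95 and 7.84 with Lhx3, above all CD2 YFP arrays, and rose by 1.26 ± 0.30 (adjusted p = 0.0144), where it had fallen with DNLhx3. The difference between the 2 lines was not tested. Kcnip4 read 9.78 and 10.19 with Lhx3 and rose by 1.63 ± 0.38 (adjusted p = 0.0144). With Pou3f1+Lhx3, whose YFP arrays in batch 7 were already at 9.56 and 9.67, Kcnip4 differed by -0.04 ± 0.27 and Kcnj2 by -0.07 ± 0.21. Both calls with Lhx3 were lost without the Lhx3 array of batch 5 (Kcnj2 1.09, adjusted p = 0.605, and Kcnip4 1.32, adjusted p = 0.638).

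With Lhx3 alone, Kcnk15, a leak channel gene, fell by 0.73 ± 0.19, Kcnq1, a Kv7 channel, by 0.74 ± 0.21 and the noncoding Kcnd3os by 0.68 ± 0.20 (adjusted p = 0.0268, 0.0414 and 0.0485). All 3 lost the call without the Lhx3 array of batch 5 (-0.34, -0.55 and -0.46, adjusted p = 0.855, 0.775 and 0.806). Kcnq1 also lost it without YFP replicate 2 of batch 2 or either YFP array of batch 3 (adjusted p = 0.0512 to 0.0575), and Kcnd3os without YFP replicate 1 of batch 1, replicate 2 of batch 2 or replicate 1 of batch 3 (adjusted p = 0.0573 to 0.0707). Without batch terms Kcnk15, Kcnq1 and Kcnd3os differed by -0.22, -0.44 and -0.27 (adjusted p = 0.418, 0.103 and 0.346). No CD2 YFP array was in batch 5 or 6, so these values rest on lines shared with other batches. Batch 5 shared H4 with batches 2 and 4 and Hoxa5 with batch 4, and their batch 4 arrays were among those that stood apart. The CD2 arrays of batch 6 were of Lhx3 and Zic1 only. Without the 6 arrays of batch 4, Kcnq1 and Kcnd3os lost the call (adjusted p = 0.0889 and 0.0713). Kcnk15, Kcnip1, Kcnip4, Kcnj2 and Kcnk9 kept it with Lhx3 (adjusted p = 0.00314 to 0.0315).

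With Pou3f1+Lhx3, Kcnn3, a small-conductance channel of the afterhyperpolarisation, fell by 0.77 ± 0.21, Kcnq5, a Kv7 channel of the M-current, by 0.63 ± 0.17, Kcnd1, a Kv4 channel, by 0.58 ± 0.16 and Kcna5 by 0.57 ± 0.16 (adjusted p = 0.0279, 0.0289, 0.0292 and 0.0328). Each lost the call without any 1 of the 4 batch 7 arrays of the line and YFP (adjusted p = 0.0892 to 0.318), and Kcnd1 differed by -0.96 without batch terms (adjusted p = 0.00114). Of the motor neuron list, 2 markers were higher with Pou3f1+Lhx3 and 1 with Lhx3, and none was lower. Its mean read 11.86 to 11.87 with Pou3f1+Lhx3 and 11.78 to 11.87 with Lhx3, above YFP of both reporters. The list holds Lhx3, the induced gene, so the higher mean was in part that of the gene itself. Lhx3 read 11.65 and 11.64 with Pou3f1+Lhx3 and 11.38 and 11.03 with Lhx3, against 7.67 to 7.87 on YFP. The oligodendrocyte and astrocyte means were below YFP in both lines (6.90 to 7.02 against 7.08 to 7.22 in CD14 cells and 7.06 to 7.15 against 7.16 to 7.30 in CD2 cells), and the part of these lists was not tested. The Lhx3 array of batch 5 read Mki67, a marker of dividing cells, at 11.69 and that of batch 6 at 9.88.

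With Pou3f1 alone, the POU factor of the screen, 2 members were called in CD2 cells (2.17%, against 2.09% of all genes) and 2 in CD14 cells (2.17%, against 0.306%), with no member in common. Over all genes, 9.11% of the calls in CD2 cells and 62.3% of those in CD14 cells were called the same way in both. Of the 4 arrays of CD2 cells, both of batch 4 are among the arrays that stood apart. They read Hoxa5 at 12.14 and 12.39 and Lhx3 at 10.02 and 10.42, against 9.64 and 9.75 and 7.94 and 7.88 on the other Pou3f1 arrays. Kcnn3 fell by 0.65 ± 0.17 in CD2 cells (adjusted p = 0.0298) and Kcnj11 rose by 0.37 ± 0.09 (adjusted p = 0.0138). Without the 6 arrays of batch 4 these were -0.89 and 0.44 (adjusted p = 0.000595 and 0.0116). In CD14 cells Kcnj2 fell by 0.88 ± 0.21 and Kcna7, a Kv1 channel, by 0.54 ± 0.13 (adjusted p = 0.0431 and 0.0404). The direct test of the effect in CD14 against that in CD2 cells called no member (limma) and 0.01% of all genes. At an unadjusted p under 0.05 there were 6 of the 92 members and 1190 of all 19938 genes.

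On single arrays, Kcnj2 read 5.95 and 5.56 with Pou3f1 in CD14 cells and 6.44 and 6.82 on YFP of that batch. It read 6.23, 5.82, 6.43 and 6.75 with Pou3f1 in CD2 cells against 6.36 to 7.05 on YFP, and the difference of -0.41 ± 0.16 did not pass (adjusted p = 0.239). The groups were apart in CD14 cells and overlapped in CD2 cells. In CD14 cells the difference was -1.45 without batch terms (adjusted p = 0.00101), and Kcnj2 lost its call without any 1 of the 6 arrays of Pou3f1 and YFP (adjusted p = 0.0534 to 0.838), and Kcna7 without any 1 of the 4 of batch 6 (adjusted p = 0.0694 to 0.771). In CD2 cells Kcnn3 lost it without Pou3f1 replicate 6 of batch 1 or replicate 2 of batch 2, or without YFP replicate 1 of batch 1, replicate 2 of batch 2 or replicate 2 of batch 3 (adjusted p = 0.0541 to 0.225). Kcnj11 lost it without the Pou3f1 or the YFP array of batch 1 or of batch 2 (adjusted p = 0.0758 to 0.132).

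Kcnd2, a Kv4 channel of dendritic A-type current, read 9.70, 9.61, 9.20 and 9.44 with Pou3f1 in CD2 cells and 8.82 to 9.34 on YFP, and its difference of 0.69 ± 0.19 just missed the threshold (adjusted p = 0.0505). With Pou3f1-FLAG 2 members were called (2.17%, against 2.44% of all genes). Kcnd3 fell by 0.62 ± 0.13 (adjusted p = 0.00544) and Kcnmb4, the neuronal beta subunit of the large-conductance channel, rose by 0.72 ± 0.20 (adjusted p = 0.0407). Kcnd3 read 9.94 and 10.11 with Pou3f1-FLAG and 10.47 and 10.54 with untagged Pou3f1, a difference of -0.48 ± 0.13 (adjusted p = 0.0361), the 1 member called between them (1.09%, against 2.21% of all genes). The Kcnd3 call against YFP was lost when either YFP replicate 1 of batch 6 or Pou3f1-FLAG replicate 1 was left out (adjusted p = 0.141 and 0.109), that against Pou3f1 without any 1 of the 4 arrays (adjusted p = 0.11 to 0.304), and that of Kcnmb4 without any 1 of the 4 batch 6 arrays (adjusted p = 0.095 to 0.412). Both Kcnd3 calls were also lost without batch terms (adjusted p = 0.088 against YFP and 0.385 against Pou3f1). The 2 Pou3f1-FLAG arrays were far apart in marker means, at 9.4 and 10.25 for the progenitor list and 8.99 and 10.35 for the cycling list. The part of this in the channel results was not tested.

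Adding a Hox gene to Pou3f1 gave more calls. Hox genes set position along the spinal cord, Hoxa5 at the cervical and Hoxc6 at the brachial level. In Pou3f1+Hoxa5 9 members were called (9.78%, against 5.92% of all genes), 2 higher and 7 lower (3.09% and 2.82% of all genes). In Pou3f1+Hoxc6 12 were called (13.0%, against 8.98% of all genes), 4 higher and 8 lower (4.8% and 4.18% of all genes). Against Pou3f1 alone the counts were 7 (7.61%, against 3.45% of all genes) and 10 (10.9%, against 8.97%). All of these arrays were in batch 6, and both lines share their YFP and Pou3f1 controls.

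Kcnc2, a Kv3 channel of fast-spiking neurons, read 7.40 and 7.59 with Pou3f1+Hoxa5, 7.01 and 6.58 with Pou3f1+Hoxc6, 5.99 and 5.99 with Pou3f1 and 6.09 to 6.20 on the 4 YFP arrays. Both Hox lines were above every Pou3f1 and YFP array, and the Hoxa5 line was above the Hoxc6 line. Kcnc2 is among the dim members, so its low values on Pou3f1 and YFP arrays may not be above background. The difference was 1.39 ± 0.18 with Pou3f1+Hoxa5 (adjusted p = 2.27e-06) and 0.69 ± 0.18 with Pou3f1+Hoxc6 (adjusted p = 0.00926). Against Pou3f1 alone the differences were 1.51 ± 0.18 (adjusted p = 1.38e-06) and 0.81 ± 0.18 (adjusted p = 0.00248), and Pou3f1+Hoxc6 lay below Pou3f1+Hoxa5 by -0.70 ± 0.18 (adjusted p = 0.0355). In Pou3f1+Hoxc6 the call against YFP was lost without replicate 1 or either YFP array of batch 6 (adjusted p = 0.0561 to 0.257), that against Pou3f1 without replicate 1 (adjusted p = 0.11), and that against Pou3f1+Hoxa5 without either Pou3f1+Hoxa5 array or Pou3f1+Hoxc6 replicate 2 (adjusted p = 0.141 to 1). With Hoxa5 alone in CD2 cells Kcnc2 read 7.26 and 7.82 against 6.34 to 6.59 on YFP, and the difference of 0.87 ± 0.20 did not pass (adjusted p = 0.134). Of these 2 Hoxa5 arrays, 1 was among those of batch 4 that stood apart and 1 was in batch 5, and neither batch held a YFP array.

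Kcnd2 read 10.31 and 10.34 with Pou3f1+Hoxc6, 9.25 and 9.30 with Pou3f1+Hoxa5, 9.56 and 9.78 with Pou3f1 and 8.57 to 9.39 on YFP. The Hoxc6 line was the highest of the 4 groups on every array. Kcnd2 rose by 1.09 ± 0.24 with Pou3f1+Hoxc6 (adjusted p = 0.00254) and exceeded Pou3f1+Hoxa5 by 1.05 ± 0.24 (adjusted p = 0.0176). The call against YFP was lost when YFP replicate 1 of batch 6 was left out (adjusted p = 0.0778), and that between the Hox lines without any 1 of their 4 arrays (adjusted p = 0.14 to 0.232).

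Kcnv1, a silent subunit, read 8.68 and 8.69 with Pou3f1+Hoxc6 and 7.76 and 7.82 with Pou3f1+Hoxa5, against 7.98 and 7.88 on YFP of that batch. It rose by 0.75 ± 0.20 with Pou3f1+Hoxc6 (adjusted p = 0.0138) and exceeded Pou3f1 by 0.65 ± 0.20 and Pou3f1+Hoxa5 by 0.89 ± 0.20 (adjusted p = 0.0368 and 0.0152). Each of the 3 calls was lost without any 1 of the 4 batch 6 arrays compared (adjusted p = 0.0739 to 0.219). Kcnj3 rose by 0.44 ± 0.14 with Pou3f1+Hoxc6 (adjusted p = 0.0469), a call that was lost without any 1 of the 6 arrays of the line and YFP (adjusted p = 0.0527 to 0.364). Kcnip1 rose by 1.06 ± 0.27 with Pou3f1+Hoxa5 (adjusted p = 0.0129) and exceeded Pou3f1 by 1.45 ± 0.27 (adjusted p = 0.00109). The first of these was lost without any 1 of the 4 batch 6 arrays (adjusted p = 0.0527 to 0.167) and the second without Pou3f1+Hoxa5 replicate 3 (adjusted p = 0.0548).

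Kcnd3 fell in both Hox lines. It read 9.95 and 9.93 with Pou3f1+Hoxa5, 9.83 and 9.87 with Pou3f1+Hoxc6, 10.47 and 10.54 with Pou3f1 and 10.49 to 10.67 on YFP. The Hox lines lay below every array of the other 2 groups. The falls were -0.70 ± 0.13 (adjusted p = 0.000571) and -0.79 ± 0.13 (adjusted p = 3.63e-05) against YFP, and -0.57 ± 0.13 and -0.65 ± 0.13 against Pou3f1 (adjusted p = 0.00742 and 0.000677). The call of Pou3f1+Hoxa5 against Pou3f1 was lost without Pou3f1 replicate 2 or either Pou3f1+Hoxa5 array (adjusted p = 0.0635 to 0.121), and that of Pou3f1+Hoxc6 against Pou3f1 without batch terms (adjusted p = 0.0624).

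Kcnq5 read 7.40 and 7.59 with Pou3f1+Hoxa5, 7.41 and 7.40 with Pou3f1+Hoxc6, 8.20 and 8.41 with Pou3f1 and 8.07 to 8.25 on YFP, so the Hox lines were again apart from the rest. It fell by 0.65 ± 0.17 and 0.74 ± 0.17 against YFP (adjusted p = 0.02 and 0.00458) and by 0.81 ± 0.17 and 0.90 ± 0.17 against Pou3f1 (adjusted p = 0.00443 and 0.000617). The call against YFP was lost without any 1 of the 4 batch 6 arrays in Pou3f1+Hoxa5 (adjusted p = 0.0709 to 0.22) and without YFP replicate 2 of batch 6 in Pou3f1+Hoxc6 (adjusted p = 0.0722), and that of Pou3f1+Hoxa5 against Pou3f1 without Pou3f1 replicate 2 or Pou3f1+Hoxa5 replicate 2 (adjusted p = 0.132 and 0.0952).

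Falls called in both Hox lines against YFP were also those of Kcna2 (-0.48 ± 0.13 and -0.52 ± 0.13, adjusted p = 0.0218 and 0.00839) and of Kcnj2 (-0.68 ± 0.21 and -0.72 ± 0.21, adjusted p = 0.0396 and 0.021). In Pou3f1+Hoxa5, Kcnip3, a KChIP, fell by 0.72 ± 0.22 and Kcnj12 by 0.63 ± 0.17 (adjusted p = 0.039 and 0.0212). In Pou3f1+Hoxc6 the silent subunit Kcnf1 fell by 0.64 ± 0.18, the Kv3 channel Kcnc1 by 0.48 ± 0.13 and Kcnh2 by 0.34 ± 0.10 (adjusted p = 0.015, 0.0118 and 0.0189). Without batch terms Kcnj2 differed by -1.26 and -1.29 in the 2 lines (adjusted p = 0.00185 and 0.000677), and in Pou3f1+Hoxc6 Kcnf1 by -0.37 and Kcnh2 by -0.09 (adjusted p = 0.198 and 0.662). In Pou3f1+Hoxa5, Kcna2, Kcnj2, Kcnip3 and Kcnj12 lost the call without any 1 of the 4 batch 6 arrays of the line and YFP (adjusted p = 0.0693 to 0.384). In Pou3f1+Hoxc6 Kcnh2 did so too (adjusted p = 0.0848 to 0.157), Kcnc1 without replicate 2 or YFP replicate 2 of batch 6 (adjusted p = 0.161 and 0.163), Kcnf1 without replicate 1 or either YFP array of batch 6 (adjusted p = 0.0809 to 0.221), Kcna2 without replicate 2 or either YFP array of batch 6 (adjusted p = 0.0649 to 0.16), and Kcnj2 without either replicate or YFP replicate 2 of batch 6 (adjusted p = 0.116 to 0.263).

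Further members differed from Pou3f1 alone. With Pou3f1+Hoxa5 these were Kcnab1, a Kv beta subunit, at 0.51 ± 0.13 and Kcnt1, a sodium-activated channel, at 0.43 ± 0.12, both higher (adjusted p = 0.0212 and 0.0416). With Pou3f1+Hoxc6 they were Kcnip4 at 0.85 ± 0.27, Kcnf1 at -0.55 ± 0.18, Kcnc1 at -0.52 ± 0.13, Kcnh2 at -0.35 ± 0.10 and Kcnab2 at -0.35 ± 0.11 (adjusted p = 0.0379, 0.0424, 0.00693, 0.0153 and 0.0422). Kcnma1, the pore of the large-conductance channel, was 0.59 ± 0.15 higher in Pou3f1+Hoxc6 than in Pou3f1+Hoxa5 (adjusted p = 0.031), 1 of the 4 members called between them (4.35%, against 0.973% of all genes), and the sign turned with its other cluster, the one of highest variance (-3.50, adjusted p = 0.368). All of these were lost without any 1 of the 4 arrays compared (adjusted p = 0.0513 to 0.454), except Kcnc1, which was lost without Pou3f1 or Pou3f1+Hoxc6 replicate 2 (adjusted p = 0.112 and 0.123).

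**Figure D4:**
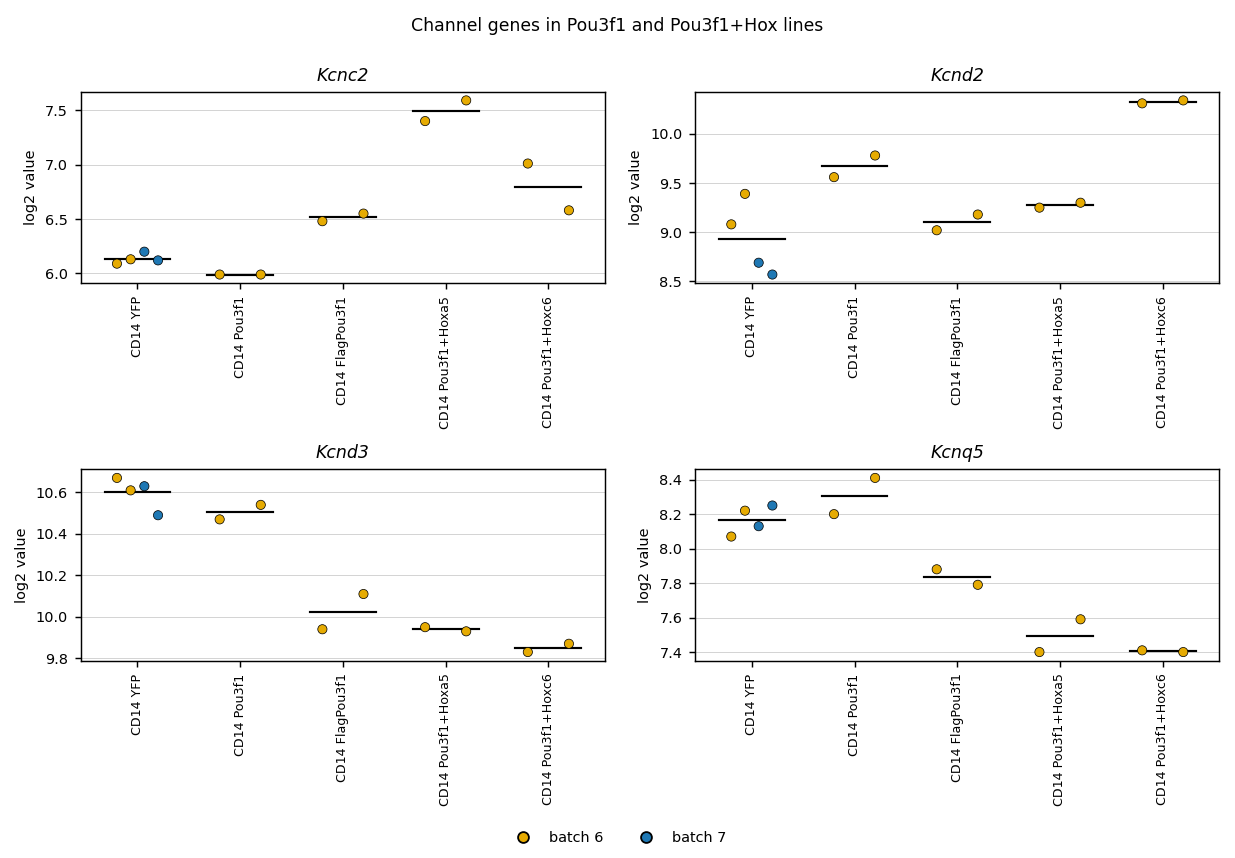
log2 values of Kcnc2, Kcnd2, Kcnd3 and Kcnq5 on each array of the YFP, Pou3f1, Pou3f1-FLAG, Pou3f1+Hoxa5 and Pou3f1+Hoxc6 groups of CD14 cells. Points are arrays coloured by batch and bars are group means. Kcnc2 reads 7.40 and 7.59 with Pou3f1+Hoxa5 and 6.09 to 6.20 on YFP, and Kcnd3 is at 9.83 to 9.95 in both Hox lines.

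Malat1, an RNA kept in the nucleus, moved with these lines. It read 11.96 to 12.11 in Pou3f1+Hoxa5 and Pou3f1+Hoxc6 and 12.21 and 12.25 in Pou3f1-FLAG, against 10.57 and 10.91 on YFP of batch 6 and 10.67 and 10.36 with Pou3f1. Malat1 was also high in NERT (10) (11.98 and 11.86) and NERT (30) (11.61 and 11.51), against 10.96 and 10.98 on YFP of batch 7. Of 16 progenitor markers, 3 were lower with Pou3f1+Hoxa5 (median difference -0.51) and 5 with Pou3f1+Hoxc6 (median -0.53), and none was higher. Their mean read 9.49 to 9.62 in these lines against 9.90 to 10.28 on CD14 YFP. Cycling markers had medians of -0.39 and -0.43 with none called by limma (1 in each line at an unadjusted p under 0.05). Their means read 9.14 to 9.44 against 9.60 to 10.72 on CD14 YFP. Means of the synaptic and mature neuron list (11.68 to 11.78 against 11.33 to 11.66) and of the dorsal interneuron and sensory list (8.13 to 8.30 against 7.98 to 8.11) were above YFP in both lines, and that of the ventral interneuron list in Pou3f1+Hoxc6 (7.45 to 7.51 against 7.28 to 7.39). These YFP ranges span batches 6 and 7. In batch 6, Pou3f1 alone read the synaptic list at 11.66 to 11.68 and the E3 array at 11.69, near the Hox lines. The E3 array read the cycling list at 9.25, within their range, and Pou3f1 at 9.54 to 9.68. Pou3f1 and E3 read the progenitor list higher (9.91 to 10.0 and 9.75) and the dorsal list lower (8.08 to 8.09 and 8.11) than the Hox lines. The part of Malat1 and of these markers in the results for Kcnd3, Kcnc2 and the others was not tested.

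Hoxc6 alone in CD2 cells, both arrays in batch 5, called 4 members (4.35%, against 2.35% of all genes). Kcnk9, Kcnd3 and Kcnh2 fell, as they did with Pou3f1+Hoxc6 against other YFP arrays, which is 75% of the calls with Hoxc6 and 25% of those with Pou3f1+Hoxc6 (39.3% and 10.3% over all genes). Kcnd3 fell by 0.67 ± 0.17 and Kcnh2 by 0.46 ± 0.13 (adjusted p = 0.0276 and 0.0463), and Kcnh1 rose by 1.24 ± 0.27 (adjusted p = 0.00694), at 9.66 and 9.20 against 7.57 to 8.25 on YFP. Kcnh1 lost its call without Hoxc6 replicate 1 (adjusted p = 0.0713), and without the 6 arrays of batch 4 that read high for Hox genes its difference was 0.80 (adjusted p = 0.152). Kcnd3 lost its call without either Hoxc6 array, YFP replicate 1 of batch 1 or YFP replicate 2 of batch 2 (adjusted p = 0.0528 to 0.0951), and Kcnh2 without Hoxc6 replicate 2 or the same YFP arrays (adjusted p = 0.0512 to 0.222). Both also lost it without the 6 arrays of batch 4 (adjusted p = 0.0759 and 0.307) and without batch terms (0.103 and 0.0804). With arrays of the same reporter only, Kcnh1, Kcnd3 and Kcnh2 lost it (adjusted p = 0.0578, 0.149 and 0.211). Kcnk9 kept its call in these settings. No CD2 YFP array was in batch 5. With Hoxa5 alone, 1 array of which was among those of batch 4 that stood apart, no member was called by limma. At an unadjusted p under 0.05 there were 13 of the 92 members and 2071 of all 19938 genes.

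Kcnk9, which encodes an acid-sensitive leak channel close to Kcnk3, had the most calls of all members, in 9 of the 27 comparisons, and fell in 8 of them. Over the arrays of batches 1 to 7 it ran from 8.82 to 12.58, with a standard deviation of 0.994, above that of 99.7% of genes. On YFP it read 11.57, 11.68, 11.58 and 12.41 in CD2 cells, 11.20 and 11.33 in CD14 cells of batch 6 and 10.36 and 10.28 in those of batch 7. The YFP arrays of CD14 cells thus differed by batch.

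In CD14 cells of batch 6, Kcnk9 read 9.0 and 8.98 with Pou3f1+Hoxc6, 9.60 and 9.72 with Pou3f1+DNLhx3 and 10.05 and 10.16 with Pou3f1+Hoxa5, but 11.71 and 11.82 with Pou3f1 and 11.43 and 11.31 with Pou3f1-FLAG. Lines with a second factor were below YFP of the same batch and those with Pou3f1 only were not. Hoxa5 was high on the same arrays, at 12.09 and 12.14 with Pou3f1+Hoxc6, 11.29 and 11.16 with Pou3f1+DNLhx3 and 11 and 11.01 with Pou3f1+Hoxa5. It read 9.93 and 9.79 with Pou3f1, 9.89 and 9.95 with Pou3f1-FLAG and 9.58 and 9.10 on YFP of that batch, and its part in the Kcnk9 values was not tested. The falls were -2.27 ± 0.34, -1.60 ± 0.34 and -1.16 ± 0.34 against YFP (adjusted p = 1.02e-05, 0.00198 and 0.0343). Against Pou3f1 alone they were -2.78 ± 0.34, -2.10 ± 0.34 and -1.66 ± 0.34 (adjusted p = 4.63e-07, 7.53e-05 and 0.00294). The Pou3f1+Hoxa5 call for Kcnk9 was lost without any 1 of the 4 batch 6 arrays against YFP (adjusted p = 0.151 to 0.211) and without Pou3f1 replicate 2 against Pou3f1 (adjusted p = 0.0643). Without batch terms the differences from YFP were -0.69 with Pou3f1+Hoxa5 and -1.13 with Pou3f1+DNLhx3 (adjusted p = 0.603 and 0.366).

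In batch 7 Kcnk9 read 8.82 and 9.11 with Pou3f1+Lhx3 and 9.21 and 8.88 with NERT (30), against 10.20 and 10.11 with NERT (10). It fell by 1.35 ± 0.34 with Pou3f1+Lhx3 (adjusted p = 0.0124), which was lost without Pou3f1+Lhx3 replicate 3 or either YFP array of batch 7 (adjusted p = 0.0959 to 0.167). In CD2 cells it read 9.61 and 9.44 with Hoxc6, 9.17 and 10.78 with Lhx3 and 10.49 and 10.71 with Klf6, and fell by 2.33 ± 0.46, 2.21 ± 0.49 and 1.24 ± 0.30 (adjusted p = 0.00277, 0.00998 and 0.046). The fall with Lhx3 rested on the array of batch 5 (without it -0.78, adjusted p = 0.86), and that with Klf6 was lost without any 1 of the 6 arrays of Klf6 and YFP (adjusted p = 0.0503 to 0.295). Hoxa5 was not high on all these arrays. It read 9.62 and 9.20 with Pou3f1+Lhx3 and 9.55 and 9.23 with NERT (30), against 9.34 and 9.48 on YFP of batch 7. In CD2 cells it read 11.80 and 12.07 with Hoxc6, 9.02 and 9.58 with Lhx3 and 8.78 and 9.70 with Klf6. CD2 YFP read Hoxa5 at 9.06 to 9.97.

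A rise of Kcnk9 was called in Notch1 ICD (10), by 2.30 ± 0.36 (adjusted p = 7.03e-05), although its arrays read 12.37 and 12.02, within the range of CD2 YFP. Both were in batch 4, which held no YFP array. The 6 arrays of that batch that stood apart for Hoxa5 and Hoxc5 read Kcnk9 at 9.23 to 10.61. Without those 6 arrays the difference was 1.69 (adjusted p = 0.162), and without batch terms 0.38 (adjusted p = 0.867). The same lines read Kcnk9 at 12.58 (Arid5b), 11.71 (Chd5), 11.77 (Hoxa5), 11.40 and 12.18 (H4) and 11.74 and 11.77 (Pou3f1) in other batches.

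**Figure D5:**
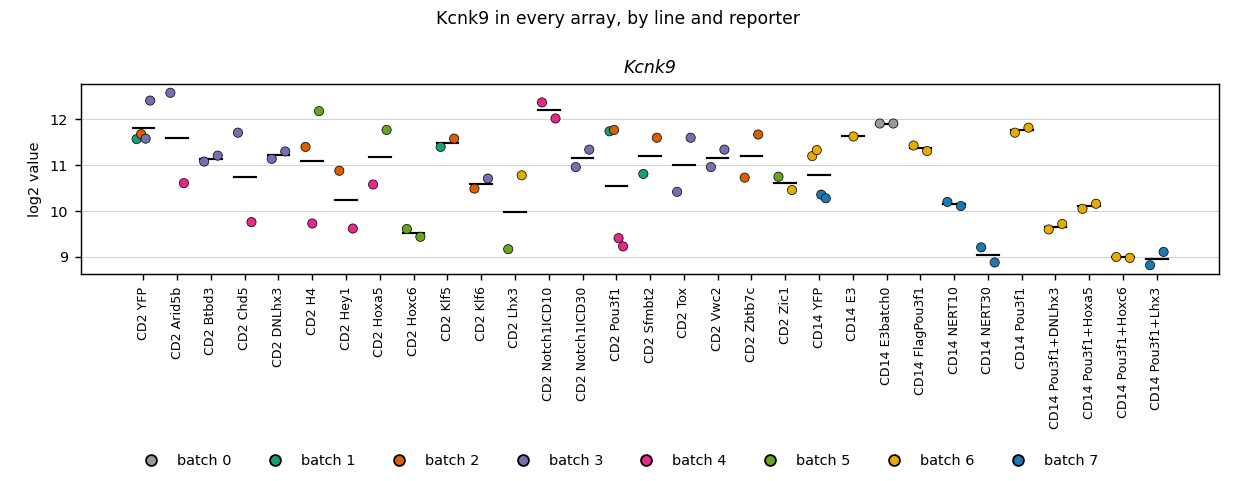
log2 values of Kcnk9 on all 68 arrays by line, CD2 cells on the left and CD14 cells on the right. Points are arrays coloured by batch and bars are group means. Arid5b, Chd5, H4, Hoxa5 and Pou3f1 of CD2 cells are split between batch 4 and other batches, as Pou3f1 at 11.74 and 11.77 against 9.41 and 9.23. The lowest value is 8.82 in Pou3f1+Lhx3.

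The remaining lines gave few calls. In Klf5 and Klf6, zinc finger factors, 1 and 3 members were called (1.09% and 3.26%, against 0.311% and 0.471% of all genes). Kcnh4, an elk channel, read 9.59 and 9.56 with Klf5 and 9.21 and 9.10 with Klf6, against 8.34 to 8.94 on YFP. All 4 arrays were above the YFP arrays. It rose by 0.77 ± 0.14 (adjusted p = 0.00221) and 0.55 ± 0.13 (adjusted p = 0.038). Kcna6 read 9.53 and 9.49 with Klf6 against 8.41 to 8.91 and rose by 0.74 ± 0.17 (adjusted p = 0.0391). Kcnh4 lost its call in Klf5 without replicate 8 (adjusted p = 0.16) and in Klf6 without either replicate, YFP replicate 1 of batch 1 or YFP replicate 2 of batch 3 (adjusted p = 0.0758 to 0.236). Kcna6 lost it without either Klf6 replicate or YFP replicate 1 of batch 1 or of batch 3 (adjusted p = 0.0922 to 0.202). All 3 calls in Klf6, with that of Kcnk9, were lost without batch terms and with arrays of the same reporter or batch only (adjusted p = 0.219 to 0.616). With same-batch arrays only, Kcnh4 lost its call in Klf5 (adjusted p = 0.137).

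Notch1 ICD (10) called 2 members (2.17%, against 2.96% of all genes), Kcnk9 and Kcnb2, a Kv2 channel, at 0.67 ± 0.20 (adjusted p = 0.0498). Kcnb2 lost its call without either Notch1 ICD (10) array or YFP replicate 2 of batch 2 or of batch 3 (adjusted p = 0.066 to 0.422), and differed by 0.08 without batch terms (adjusted p = 0.948). No member was called by limma in the other 12 comparisons, those of NERT (10), Arid5b, Btbd3, Chd5, H4, Hey1, Hoxa5, Sfmbt2, Tox, Vwc2, Zbtb7c and Zic1. There 3 to 14 of the 92 members had an unadjusted p under 0.05, as did 1022 to 2303 of all 19938 genes. Arid5b, Chd5, H4 and Hoxa5 each had 1 array among those of batch 4 that stood apart. The share of all genes called was 0.416% in NERT (10), 0.361% in Hey1, 0.291% in Zic1, 0.0602% in Tox, 0.0451% in Btbd3, 0.0251% in Zbtb7c, 0.015% in Vwc2, 0.01% in Arid5b, 0.00502% in H4 and 0% in Chd5, Hoxa5 and Sfmbt2.

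Between NERT (30) and NERT (10), 9 members were called (9.78%, against 3.78% of all genes), 3 higher and 6 lower (1.87% and 1.91% of all genes). Beside Kcnk3, Kcnj8, Kcnk5 and Kcnd3, named above, these were falls of Kcnip4 (-0.97 ± 0.27), Kcnma1 (-0.58 ± 0.15), Kcnh8, an elk channel (-0.58 ± 0.16), Kcnd1 (-0.56 ± 0.16) and Kcnt1 (-0.56 ± 0.12), with adjusted p of 0.0282, 0.0144, 0.0278, 0.0397 and 0.00364. The first 4 were lost without any 1 of the 4 NERT arrays (adjusted p = 0.0602 to 0.374) and Kcnt1 without NERT (30) replicate 1 or NERT (10) replicate 2 (adjusted p = 0.0744 and 0.0565). With the cluster of highest variance, Kcnma1 differed by 0.06 (adjusted p = 0.996) and Kcnh8 by -0.39 (adjusted p = 0.0951).

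Among channels long studied in motor neurons, several were never called against YFP. Kcnq3, of the M-current, lay between -0.81 and 0.45 of YFP over the 27 comparisons, Kcnma1 between -0.38 and 0.68 and Kcnip2, the main KChIP of Kv4 channels in heart, between -0.65 and 0.57. Kcnq3 read 8.97 to 9.21 on CD2 YFP and 8.55 to 9.01 on CD14 YFP. Kcnma1 read 9.71 to 9.85 and 9.29 to 9.55, a narrow spread over the YFP arrays of each reporter. The largest differences that did not pass in any comparison were those of Kcnmb1 at 1.17 in size, Kcnt2 at 1.04 and Kcne4 at 0.88. The E3 arrays read Kcnk9 at 11.64 in batch 6 and 11.91 and 11.91 in batch 0, and Kcnip4 at 7.04, 6.25 and 6.44.

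Of 29 measured partner genes without a Kcn name (auxiliary subunits, channel scaffolds and related channels), between 0 and 7 were called per comparison with YFP, in which 0% to 8.98% of all genes were called. Dpp10, which binds Kv4 channels and speeds them, rose in Notch1 ICD (30) by 0.89 ± 0.22, in NERT (30) by 0.91 ± 0.24, in Pou3f1+DNLhx3 by 0.97 ± 0.24, in Pou3f1+Hoxa5 by 0.94 ± 0.24 and in Pou3f1+Lhx3 by 1.52 ± 0.24 (adjusted p = 0.00725, 0.0153, 0.00791, 0.0113 and 2.54e-05). Its relative Dpp6 rose by 0.65 ± 0.16 in Pou3f1+Hoxc6 (adjusted p = 0.00606). Lrrc55, an auxiliary subunit of the large-conductance channel, fell by 1.30 ± 0.20 in Pou3f1+Hoxa5 and 1.09 ± 0.20 in Pou3f1+Hoxc6 and rose by 0.97 ± 0.18 in DNLhx3 (adjusted p = 4.38e-05, 0.000211 and 0.000685). Ank3, the scaffold of the axon initial segment, fell by 0.52 ± 0.12 and 0.59 ± 0.12 in the same Hox lines (adjusted p = 0.00489 and 0.000678). Cntn2, an adhesion protein that gathers Kv1 channels beside nodes, fell by 0.84 ± 0.22 in Notch1 ICD (30) and 0.94 ± 0.24 in NERT (30) (adjusted p = 0.0149 and 0.0137), and rose by 1.65 ± 0.35 with Lhx3 and 0.98 ± 0.24 with Pou3f1+Lhx3 (adjusted p = 0.0061 and 0.00963). Partner genes called per comparison were 2 higher and 5 lower in Notch1 ICD (30) (24.1%, against 6.07% of all genes), 2 and 2 in NERT (30) (13.8%, against 4.7%), 1 and 2 in Pou3f1+Hoxa5 (10.3%, against 5.92%), 2 and 5 in Pou3f1+Hoxc6 (24.1%, against 8.98%), and 5 and 1 in Pou3f1+Lhx3 (20.7%, against 3.94%). These lines had medians over the list of -0.10, -0.08, -0.04, 0.05 and 0.15, where all genes had medians of -0.03, -0.06, 0.01, 0.06 and -0.01.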

How the data were processed

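The deposited table holds log2 expression values of 68 mouse Affymetrix arrays, which the authors made with RMA in oligo, per the submitters' processing notes. Versions and the annotation build: not given in the sources used here. RMA subtracts background, equalises array distributions and summarises probes, so a shift of most genes at once would be removed. For each of 19938 genes the cluster with exactly 1 symbol that was brightest on average was kept. limma 3.58.1 (R 4.3.3) fitted 1 term per group and per batch to all arrays (37 columns, 31 residual and 6.08 prior degrees of freedom), with eBayes and Benjamini-Hochberg adjustment over all genes at 0.05. Arrays carry no counts, and 2 to 4 arrays a group limit the precision. Lines were compared with YFP of the same reporter. The members named were, per comparison with most calls, the 10 largest rises and 10 largest falls called, elsewhere the 5 largest called changes, and in any comparison the 15 members called most often and a list of textbook channels, with at most 4 called partner genes per comparison. Further called members between lines were named after their values were seen. Members and lists were chosen with earlier results of these data known. The fit was tested on simulated data. Alternatives were no batch terms, the same reporter or batch only, 6 arrays of batch 4 left out, quantile normalization once more, dim genes left out, a replicate block, another cluster choice and each array left out. Promoter windows came from RefSeq. Protein sequences were not used here.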

Additional observations from a re-analysis of the deposited data

Results flagged for a closer look

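In the 25 member genes screened over the 3 groups of 4 arrays (75 screens), 3 values, on 2 arrays, stood apart from the other 3 arrays of their group by more than Dixon's 95% critical value, where chance flags about 5% of screens. Both were CD2 YFP arrays of batch 3. Kcnip4 read 8.70 on replicate 1, where the others read 7.77 to 7.91 (gap over range 0.85). Kcnk9 read 12.41 on replicate 2, where the others read 11.57 to 11.68 (0.873). Kcnq5 read 8.46 on replicate 2, where the others read 8.05 to 8.10 (0.867).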

How the results depend on the processing

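Of 130 calls (93 against YFP and 37 between lines), 32 remained without any 1 array. With each array left out in turn, members called ranged from 6 to 13 in Notch1 ICD (30), 2 to 7 in NERT (30), 5 to 9 in Pou3f1+DNLhx3, 2 to 8 in Pou3f1+Lhx3, 2 to 9 in Pou3f1+Hoxa5, 4 to 11 in Pou3f1+Hoxc6, 0 to 2 in Pou3f1-FLAG, 0 to 1 in Pou3f1 (CD14) and 0 to 3 in Pou3f1 (CD2). With arrays of the same reporter only, the counts were 0 in Pou3f1 (CD2), 4 in Pou3f1 (CD14), 18 in Pou3f1-FLAG, 23 in Pou3f1+Hoxa5, 29 in Pou3f1+Hoxc6, 20 in Pou3f1+DNLhx3, 21 in Pou3f1+Lhx3, 26 in NERT (30), 12 in Notch1 ICD (30), and 15 against 29 summed over the other 18 lines. With same-batch arrays only they were 4, 12, 21, 23, 18 and 17 in the same CD14 lines with Pou3f1, 20 in NERT (30) and 3 in Notch1 ICD (30). Without batch terms they were 8 in Notch1 ICD (30), 11 in NERT (30) and 13 against 37 between lines, and 62 of the 130 calls were lost. Quantile normalization once more, and leaving out dim genes, gave 1 in Pou3f1 (CD14). Without the 6 arrays of batch 4 the sums were 40 against 29 and 55 against 37. Same direction held for all calls and settings except Kcnma1 with its cluster of highest variance, at -3.50 between the Hox lines and 0.056 between the NERT lines. The cause was not tested. The share of all genes called was not counted under the alternative settings, so the member counts in them have no background beside them.

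With the replicate block, 39 of 129 calls were lost, and members called were 0 in Pou3f1 (CD2), 0 in Pou3f1 (CD14), 2 in Pou3f1+Hoxa5 and 1 in Pou3f1+Lhx3. Over 29 pairs of groups the same-numbered arrays' deviations correlated at -0.17 to 0.57, above 0.1 in 10, so the numbers were not taken to pair the samples.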
